A study of Drosophila melanogaster with 12 samples.

Results

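The 4 genes described here are Brd (CG3096), E(spl)m4-BFM (CG6099), E(spl)m6-BFM (CG8354) and bib (CG4722), of 11981 genes with a probe set of their own on an Affymetrix Drosophila expression array. A probe set was taken as a member where the platform annotation names 1 gene symbol for it and that symbol is one of these 4. Each gene has 1 such probe set, and each passed the filter on low values. Wing discs, the larval primordia of the wing and of the dorsal thorax, came from OreR larvae of instar 3 at the wandering stage, raised at 25 °C. S2 cells are an established line derived from embryos and resembling blood cells (haemocytes), used here at fewer than 30 passages. Cells of both kinds were sorted by DNA content at the 2C peak (G1) or the 4C peak (G2, with cells in mitosis in the same gate). Each of the 4 groups, the G1 and the G2 gate of disc and of S2, had 3 arrays, and the labels name no further treatment or allele. The disc was sorted whole, so its fractions hold epithelium together with the other cells attached to the disc.

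The Notch pathway lets a cell that is becoming a neural precursor hold back its neighbours. The ligand Delta on one cell activates the receptor Notch on the next, and Notch with Su(H) turns on the genes of the E(spl) complex, which encode bHLH repressors and small proteins of the Bearded family. Proteins of that family bind Neuralized, the ubiquitin ligase that promotes uptake of Delta, and so dampen signalling. Brd, the founder of the family, is expressed in the proneural clusters of the disc, from which sensory bristles arise. E(spl)m6-BFM is known for expression in adult muscle precursors, which adhere to the notum part of the wing disc. bib (big brain) encodes a membrane protein related to aquaporins and belongs to the neurogenic genes, whose loss gives too many neural precursors.

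Most disc epithelium and haemocyte markers lay on the side that the labels call for. nub, a transcription factor of the wing pouch, had a mean log2 intensity of 9.95 in disc G1 and 2.49 in S2 G1, while srp, the GATA factor of haemocytes, had 2.87 and 10.43. Array medians lay between 4.18 and 4.37 on the log2 scale. A log2 value of 5, the level used as the filter (reached on at least 3 of the 12 arrays by 8580 probe sets), lies above those medians, and values under it are treated here as near background. Changes are differences of log2 intensity, where 1 is a doubling, with the standard error (SE) of a limma fit to all 12 arrays. A call means an adjusted p under 0.05 over the 8580 probe sets. Of 8 disc epithelium markers tested, 6 were called higher in the disc and 2, pnr and ap, higher in S2. Of 10 haemocyte markers, 9 were called higher in S2 and 1, NimC1, higher in the disc. Whether replicate arrays stem from independent dissections or cultures is not stated, and p-values then measure only the spread between these samples, which may be technical. In bulk fractions such as these, fewer cells of a type and less RNA per cell cannot be told apart.

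In the wing disc, the 4 genes split into a pair that was higher in G2 and a pair that was lower. Brd and E(spl)m4-BFM rose 2.32-fold and 3.25-fold. E(spl)m6-BFM fell 2.85-fold and bib 2.12-fold. In S2 cells all 4 stayed near background in both gates. Over all probe sets tested in the disc comparison, limma called 5.20% higher and 5.31% lower. The 4 genes were proposed with these results known, so that their count of 2 higher and 2 lower is a description.

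Brd, the proneural cluster gene, had log2 intensities of 6.48, 6.95 and 6.22 in disc G1 replicates 2, 3 and 4, against 7.78, 7.88 and 7.64 in disc G2. Every G2 array was above every G1 array. The change was 1.22 ± 0.20 (SE, n = 3 per group; 95% interval 0.77 to 1.66; limma adjusted p = 0.0023). Among 6937 genes followed through their brightest probe set, it was number 36 from the top in the disc comparison.

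E(spl)m4-BFM, a Bearded family gene of the E(spl) complex, read 8.61, 7.63 and 7.71 in disc G1 and 10.43, 9.04 and 9.58 in disc G2, for replicates 2, 3 and 4. The gates did not overlap, although replicate 2 was the highest array in each of them. The change was 1.70 ± 0.31 (95% interval 1.02 to 2.38; limma adjusted p = 0.0043), number 8 from the top of the 6937 genes. Taken within same-numbered pairs of arrays, the rise was 1.82, 1.41 and 1.87, a narrower spread than the standard deviation of 0.54 in G1 or 0.70 in G2.

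E(spl)m6-BFM, its neighbour but 1 in the same gene complex, moved the other way. The 3 disc G1 arrays gave 11.31, 11.02 and 10.98 and the 3 disc G2 arrays 9.79, 9.26 and 9.73. Its change of -1.51 ± 0.17 (95% interval -1.89 to -1.13; limma adjusted p = 0.00014) was number 55 from the bottom. Groups did not overlap, and the pairs differed by -1.52, -1.76 and -1.25.

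bib gave 9.81, 9.35 and 9.44 in disc G1 and 8.64, 8.04 and 8.66 in disc G2, again with no overlap. The change was -1.09 ± 0.26 (95% interval -1.66 to -0.51; limma adjusted p = 0.021), number 121 from the bottom. This call was lost without wing disc G1 replicate 2 (-0.95, adjusted p = 0.080) and without wing disc G2 replicate 3 (-0.88, adjusted p = 0.076). The other 3 genes kept their call without any 1 of the 12 arrays.

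**Figure D1:**
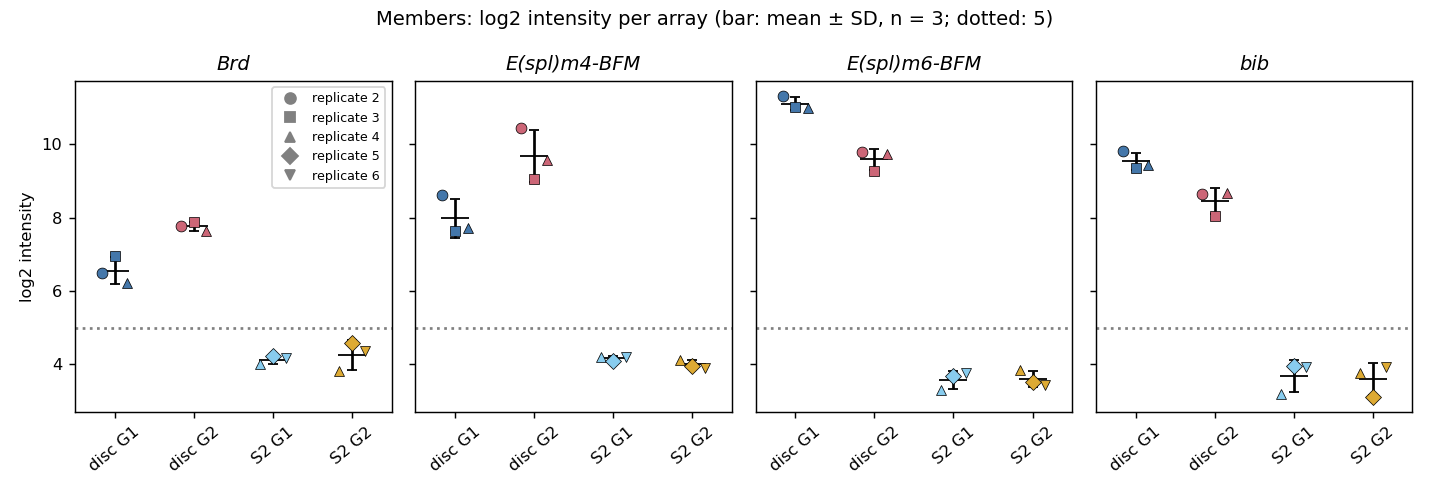
Log2 intensity of the 4 genes on each array (vertical axis, log2) in the 4 groups (horizontal axis); symbols mark the replicate number, bars the mean ± SD of 3 arrays, and the dotted line the filter level of 5. Brd and E(spl)m4-BFM lie higher in disc G2 than in disc G1, E(spl)m6-BFM and bib lie lower, and all S2 arrays are under the line.

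The log2 ratio of 2 genes on each array sets the changes above against each other. Its shift is the difference between the changes of the 2 genes and so is no separate result, but its spread between arrays is. The ratio of E(spl)m4-BFM to E(spl)m6-BFM averaged -3.12 ± 0.36 (SD, n = 3) in disc G1 and 0.09 ± 0.48 in disc G2, a shift of 3.21 that ran from 3.11 to 3.35 over the 3 pairs. Brd against E(spl)m6-BFM shifted by 2.73, Brd against bib by 2.3 and E(spl)m4-BFM against bib by 2.79. Genes that moved the same way differed less. E(spl)m6-BFM fell further than bib, with a ratio of 1.57 ± 0.08 in G1 and 1.15 ± 0.07 in G2, a shift of -0.42. Brd against E(spl)m4-BFM shifted by -0.48, and by -0.52 to -0.45 within the 3 pairs, although the groups overlapped. A two-sided exact permutation test, which does not use the pairing, gave p = 0.50 for this last pair and p = 0.10 for each of the other 5, the smallest value that 3 arrays against 3 allow. Adjusted over the 12 gene pairs compared here, these became 0.55 and 0.12. No pair could have passed 0.05 with this number of arrays, so the test cannot decide whether a ratio changed.

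In S2 cells the 4 genes showed no call between the gates, where limma called 9.65% of probe sets in either direction. Brd read 4.00, 4.22 and 4.18 in S2 G1 (replicates 4, 5 and 6) and 3.81, 4.58 and 4.37 in S2 G2. E(spl)m4-BFM stayed between 3.90 and 4.21 over the 6 arrays, E(spl)m6-BFM between 3.30 and 3.84, and bib between 3.12 and 3.95. For each gene the gates overlapped. The changes were 0.12 (95% interval -0.32 to 0.57) for Brd, -0.17 (-0.86 to 0.51) for E(spl)m4-BFM, 0.02 (-0.36 to 0.40) for E(spl)m6-BFM and -0.08 (-0.65 to 0.49) for bib. limma called 0 of the 4, and 0 had an unadjusted p under 0.05. A probe set near background cannot show a fall, and these intervals apply to array values, not to transcript numbers.

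For each gene the order of the groups was therefore both disc gates above both S2 gates, with S2 G1 and S2 G2 not told apart. The mean over disc arrays exceeded the mean over S2 arrays by 2.96 ± 0.14 for Brd, 4.75 ± 0.22 for E(spl)m4-BFM, 6.76 ± 0.12 for E(spl)m6-BFM and 5.34 ± 0.18 for bib (log2 ± SE). limma called all 4 higher in the disc, against 41.0% of all probe sets. They passed the filter through the disc arrays alone (6 of 6 disc arrays and 0 of 6 S2 arrays reached 5), so that this count is no support for a difference. The S2 means sat at the percentiles 49.9, 47.7, 34.0 and 35.9 of all probe sets, in the order above, which makes each difference a measure of the disc value over background. Set against the filter level instead, disc G1 was 2.92-fold above it for Brd and 68.7-fold above it for E(spl)m6-BFM.

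The test of whether the phase change differs between disc and S2 called 2 of the 4, against 5.10% of all probe sets. E(spl)m4-BFM differed by 1.87 ± 0.44 (limma adjusted p = 0.033) and E(spl)m6-BFM by -1.53 ± 0.24 (adjusted p = 0.0040). Brd, at 1.09 ± 0.29, had an adjusted p of 0.051, and 0.0099 with replicate number as a block. bib, at -1.0 ± 0.37, had an adjusted p of 0.16. Over the alternatives tried the adjusted p of E(spl)m4-BFM ran from 0.00075 to 0.077, and its call held under the 9 that keep all arrays. With 1 array left out, it held without wing disc G1 replicate 2, wing disc G2 replicate 2 or wing disc G2 replicate 3 and was lost without any 1 of the other 9 arrays. S2 values are near background in both gates, where a fall such as that of E(spl)m6-BFM or bib could not show. A rise from that level may be muted in array values as well. The S2 intervals of those values ended at 0.51 for E(spl)m4-BFM and 0.57 for Brd, under the disc rises of 1.70 and 1.22. They do not bound a rise in transcript numbers. With S2 near background, the differences restate the disc changes and do not show how these genes would respond in S2 cells that express them.

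The rest of the Bearded family held genes with and without a call. Of 10 family names, 8 matched a probe set and 7 passed the filter. In the disc 3 rose (E(spl)m4-BFM, Brd and Ocho), 1 fell (E(spl)m6-BFM) and 3 were not called, with a median change of 0.43 beside 0.05 over all probe sets. Ocho, the gene next to Brd, read 8.18, 8.08 and 7.74 in disc G1 and 9.46, 8.93 and 9.0 in disc G2, a rise of 1.13 ± 0.18 (adjusted p = 0.0018). Tom, the gene on the other side of Brd, changed by 0.43 ± 0.15 (95% interval 0.10 to 0.77; adjusted p = 0.10, and 0.012 to 0.25 over the alternatives, of which 4 called it). BobA was under the filter in every group, and no probe set was matched to BobB or BobC alone.

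The ratio of Brd to Ocho shifted by 0.08, and by 0.02 to 0.16 within the pairs, with overlapping groups (exact permutation p = 0.70). Brd against Tom shifted by 0.78 without overlap (exact permutation p = 0.10, adjusted 0.12). Their positions and directions stand side by side in the plot of changes along the complexes.

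The E(spl) complex holds 2 more Bearded family genes, neither of them next to a member and neither called. E(spl)m2-BFM read 12.57, 11.36 and 11.79 in disc G1 and 12.71, 11.28 and 11.89 in disc G2 (0.05 ± 0.38; 95% interval -0.78 to 0.87). E(spl)malpha-BFM read 12.38, 11.22 and 11.66 and then 12.47, 10.93 and 11.70 (-0.05 ± 0.36; 95% interval -0.85 to 0.74). Both intervals are wide in this fit, which leaves out the pairing, and replicate 2 was the highest array in both gates for each gene. With replicate number as a block the SE was 0.10 for E(spl)m2-BFM and 0.16 for E(spl)malpha-BFM. Neither was called there (limma adjusted p = 0.76 and 0.85). The ratio on each array varied less for E(spl)m4-BFM. E(spl)m4-BFM against E(spl)malpha-BFM went from -3.77 ± 0.18 to -2.02 ± 0.12, a shift of 1.75, and against E(spl)m2-BFM it shifted by 1.65. E(spl)m6-BFM shifted by -1.46 and -1.56 against the same genes. The gates did not overlap in these ratios, which share genes and were chosen after their values were seen. Without overlap, 3 arrays against 3 always give an exact permutation p of 0.10, the smallest possible (adjusted 0.12). The test therefore cannot decide whether these ratios changed.

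The bHLH repressors of the complex, which carry out Notch-dependent repression of proneural genes, gave no call in the disc. Of 9 names in a list of these repressors with E(spl)m1 and groucho, 7 had a probe set and 5 were tested, with 0 called by limma, 0 at an unadjusted p under 0.05 and a median of -0.12. E(spl)mdelta-HLH changed by -0.01 ± 0.34, E(spl)mbeta-HLH by 0.06 ± 0.22, E(spl)m3-HLH by -0.28 ± 0.25, E(spl)m7-HLH by -0.15 ± 0.31 and gro, the corepressor, by -0.12 ± 0.11. In gene order E(spl)m4-BFM lies between E(spl)m3-HLH and E(spl)m5-HLH, and E(spl)m6-BFM between E(spl)m5-HLH and E(spl)m7-HLH. E(spl)m5-HLH was under the filter, at 4.03, 3.78 and 3.73 in disc G1 and 5.75, 3.99 and 4.34 in disc G2. Each of these G2 arrays was above its paired G1 array, and the change was not tested. E(spl)m1, listed now as Kaz-m1, was under it as well, and no probe set was matched to E(spl)mgamma-HLH or E(spl)m8-HLH alone.

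**Figure D2:**
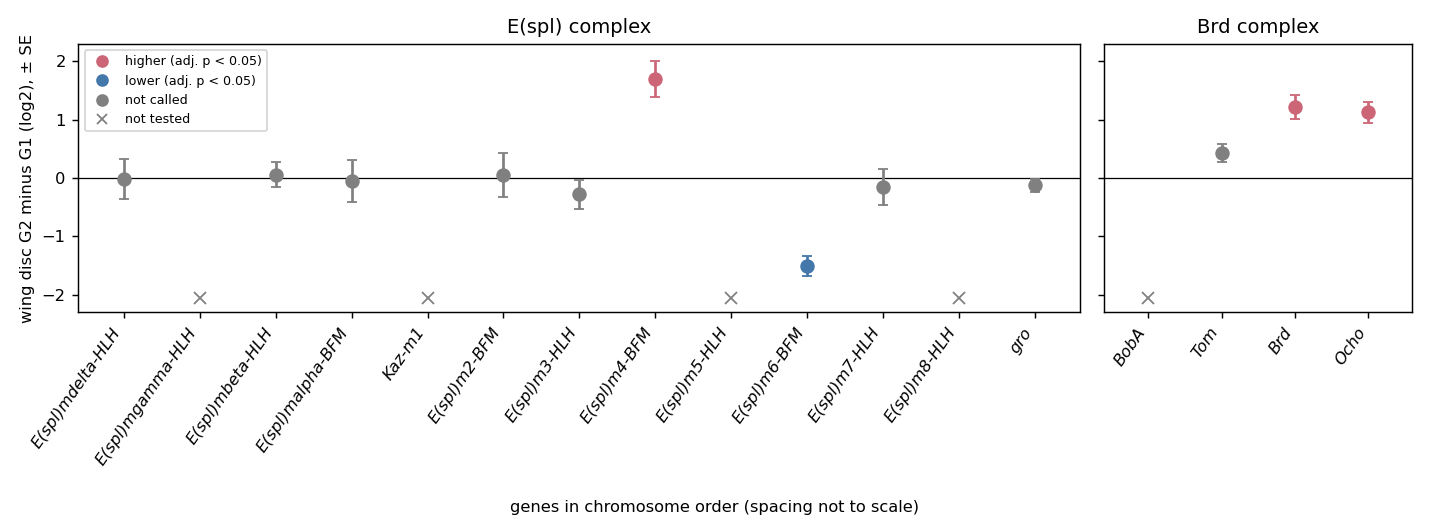
Wing disc G2 minus G1 (vertical axis, log2, ± SE of the fit, n = 3 arrays per group) for the genes of the E(spl) complex and of the Brd complex in chromosome order (horizontal axis, spacing not to scale); crosses mark genes that were not tested. E(spl)m4-BFM at 1.70 and E(spl)m6-BFM at -1.51 stand apart from the other tested genes with an E(spl) name, between -0.28 and 0.06, and Brd and Ocho lie together above 1.

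The tested genes with an E(spl) name also shared a pattern between replicates. Replicate 2 was the highest disc array in both gates for 8 of the 8 tested genes with an E(spl) name, the members E(spl)m4-BFM and E(spl)m6-BFM included. The same held for 18.3% of all 8580 probe sets. gro, listed with the same complex, and Brd were highest in replicate 3 in both gates, and Ocho and Tom in replicate 2. Same-numbered G1 and G2 arrays deviate together across the array, so that the gates are not independent here.

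Of 22 names of the Notch pathway core, 15 were tested, and 1 rose, 0 fell and 14 were not called, with a median of 0.07. That share is near the 5.20% called higher and 5.31% called lower over all probe sets. numb, which antagonises Notch in 1 daughter of an asymmetric division, rose by 0.46 ± 0.11 (adjusted p = 0.016), a call that did not hold without wing disc G1 replicate 2 or 3, or wing disc G2 replicate 2 or 4 (adjusted p up to 0.059). neur, the ubiquitin ligase that Bearded proteins bind, changed by -0.47 ± 0.18 (adjusted p = 0.13). fng, the glycosyltransferase that modifies Notch, changed by -0.08 ± 0.22. N, Dl, Ser, Su(H), mib1, nct and aph-1 had no probe set matched to them alone and were not analysed here. In S2 cells limma called 0 of the 15, with 1 at an unadjusted p under 0.05. With replicate number as a block, 1 was called higher and 1 lower there.

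Some proneural and sensory organ genes rose beside Brd in the disc. Of 22 names in a list of proneural and sensory organ genes, 14 were tested, and 5 rose, 1 fell and 8 were not called (median 0.33). With replicate number as a block, 7 were called higher and 1 lower. The proneural factors ac and sc rose by 1.64 ± 0.14 and 1.39 ± 0.16. pnr, a GATA factor that activates them on the notum, rose by 0.96 ± 0.14 and caup, a homeodomain factor of the Iroquois complex, by 0.60 ± 0.12. vvl, a POU factor, rose by 0.91 ± 0.19. pnr is counted again below among the epithelium markers and vvl among the tracheal ones, so those counts are not separate. nvy fell by 1.15 ± 0.28, and its call was lost without replicate 3 or 4 of either disc gate (adjusted p up to 0.076). The later precursor genes ase, sens, phyl and pros, with l(1)sc and amos, were under the filter and were not tested. From disc G1 to disc G2 the mean of phyl went from 3.36 to 4.86, of sens from 4.01 to 4.72 and of pros from 3.82 to 3.25. Those of ase, l(1)sc and amos differed by 0.22, 0.06 and 0.19. All these means are near background.

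Of 14 names of wing margin and vein targets, 9 were tested and 1 fell, namely ct, a homeodomain factor of the margin (-0.67 ± 0.19, adjusted p = 0.049). The disc means of ct, read from the brightest of its 3 probe sets, were 5.38 in G1 and 4.71 in G2. These lie around the filter level, so that the size of the fall is limited. Its call was lost under 12 of the alternatives (highest adjusted p = 0.17). The list had a median of 0.06, and the blocked fit called 1 gene higher and 1 lower. The pouch genes vg and nub changed by 0.30 ± 0.25 and 0.01 ± 0.17.

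Of the aquaporin family, to which bib is related, 3 of 7 names were tested. Drip, a water channel, rose by 1.43 ± 0.22 (adjusted p = 0.0013) from a G1 mean of 3.8, near background, so that the size of the rise is limited. Prip changed by -0.24 ± 0.24, and bib was the gene that fell. Eglp2 was under the filter.

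**Figure D3:**
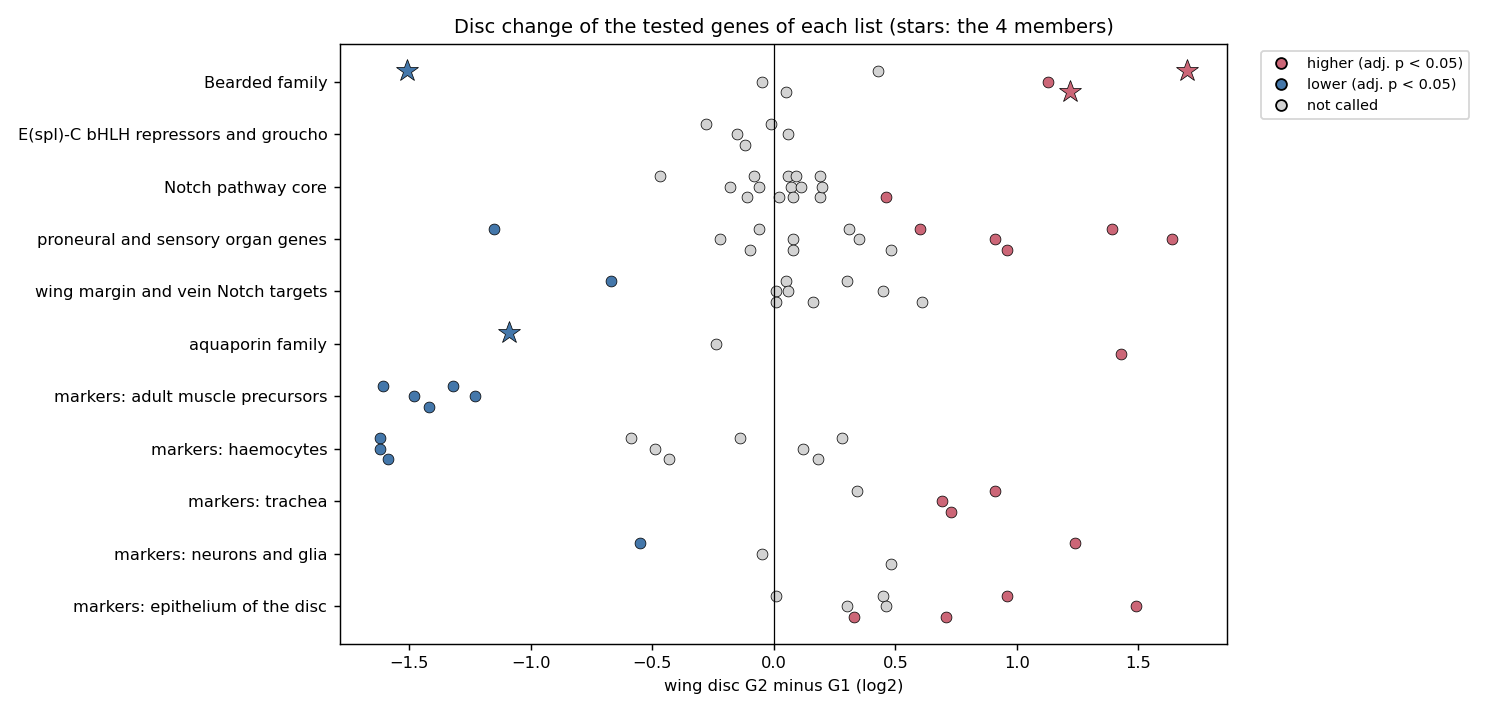
Wing disc G2 minus G1 (horizontal axis, log2) for each tested gene of the gene lists and marker lists (rows), with calls in colour and the 4 members as stars; a gene in more than 1 list is drawn in each. E(spl)m6-BFM at -1.51 and bib at -1.09 lie in the range of the muscle precursor markers or just above it. SPARC, vkg, Col4a1 and nvy of other lists lie near these values too. Brd and E(spl)m4-BFM lie beside the highest proneural genes, and eyg, Drip and moody of other lists lie there as well.

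Markers of other cells on the disc moved between the gates along with the members. Of 7 adult muscle precursor names, 5 were tested and 5 fell, with a median of -1.42. Their summed intensity was 7885 to 10367 in disc G1 and 2235 to 4915 in disc G2. Such sums are of linear intensities and follow the brightest gene most, here Him (mean log2 12.68 in disc G1). The mesodermal factor twi fell by 1.32 ± 0.17, htl, a fibroblast growth factor receptor, by 1.48 ± 0.20 and Him by 1.23 ± 0.32. The fall of Him was 0.78 without wing disc G2 replicate 3, and its adjusted p reached 0.095 without wing disc G1 replicate 2. All 5 had a disc G2 mean of at least 5, so none was absent from that gate. E(spl)m6-BFM (-1.51) and bib (-1.09) fell beside these markers, and the part of the muscle precursors in those falls was not tested.

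Of 10 haemocyte names, 10 were tested and 3 fell, the matrix genes SPARC, vkg and Col4a1 (-1.59, -1.62 and -1.62), with a median of -0.46. The blocked fit called 4 lower and 0 higher. The summed intensity of all 10 was 6125 to 8489 in disc G1 and 2261 to 2902 in disc G2. It mostly follows SPARC (mean log2 12.32 in disc G1). Of these 10 genes, 6 had a mean of at least 5 in disc G1 and 8 in disc G2. srp, the GATA factor, was under 5 in both disc gates (2.87 and 2.98), while Hml and Pxn were above it in both. Of 9 disc epithelium names with a probe set, 8 were tested and 4 rose (eyg by 1.49, pnr by 0.96, shg by 0.71 and ap by 0.33), with a median of 0.45 and sums of 3207 to 3808 in G1 and 4443 to 4888 in G2. The call of ap was lost under 10 of the alternatives (highest adjusted p = 0.14), and nub, vg, pdm2 and crb were not called. The epithelium sum was also 2769 to 3685 in S2 G1 and 3265 to 3568 in S2 G2. ap and pnr were higher in S2 than in the disc, so this sum does not measure epithelium alone. Brd and E(spl)m4-BFM rose beside the epithelium genes that were called, and the part of the epithelial share in those rises was not tested. Of 4 tracheal genes tested verm, uif and vvl rose (median 0.71), with sums of 2047 to 2530 in G1 and 3173 to 3409 in G2, while btl was under the filter. Of 4 tested genes of neurons and glia moody rose and nrv2 fell (median 0.22). The call of nrv2 was lost under 4 alternatives (adjusted p up to 0.077), and the blocked fit called 2 genes higher and 1 lower. The list had sums of 1461 to 1658 in G1 and 1078 to 1238 in G2. These mostly follow nrv2 (mean log2 10.47 in disc G1), and brp and repo were under the filter.

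Likeness of pattern was measured as the root mean square difference between 2 genes over the 12 arrays, in log2 units, after each gene's own mean was subtracted. For Brd, the nearest of 6936 other genes were eyg (0.23), tey (0.26) and shg (0.27). eyg is a Pax family factor of the notum and shg encodes E-cadherin, and these rose in disc G2 by 1.49 and 0.71, while tey rose by 0.87. For E(spl)m4-BFM they were the cuticle protein gene Cpr49Ac (0.39), CG15282 (0.44) and the tetraspanin gene Tsp74F (0.46). They rose by 1.26, 1.29 and 0.78, each less than the 1.70 of E(spl)m4-BFM.

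For E(spl)m6-BFM the nearest gene was twi (0.34), followed by bnb (0.47) and miple1 (0.52). twi read 10.87, 10.39 and 10.46 in disc G1 and 9.52, 8.85 and 9.38 in disc G2, with replicate 2 highest in both gates as in E(spl)m6-BFM. bnb changed by -0.35 ± 0.18 (adjusted p = 0.25) and miple1 fell by 1.18 ± 0.18. For bib the nearest were otk (0.31), miple1 (0.40) and eEF1alpha2, a translation elongation factor (0.42), which fell by 0.49, 1.18 and 1.28. Among the members themselves the smallest difference was 0.75, between E(spl)m6-BFM and bib, and the largest 2.16, between Brd and E(spl)m6-BFM. The step from disc to S2 makes up most of each pattern, and the arrays share their pairing, so that the measure is a description.

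**Figure D4:**
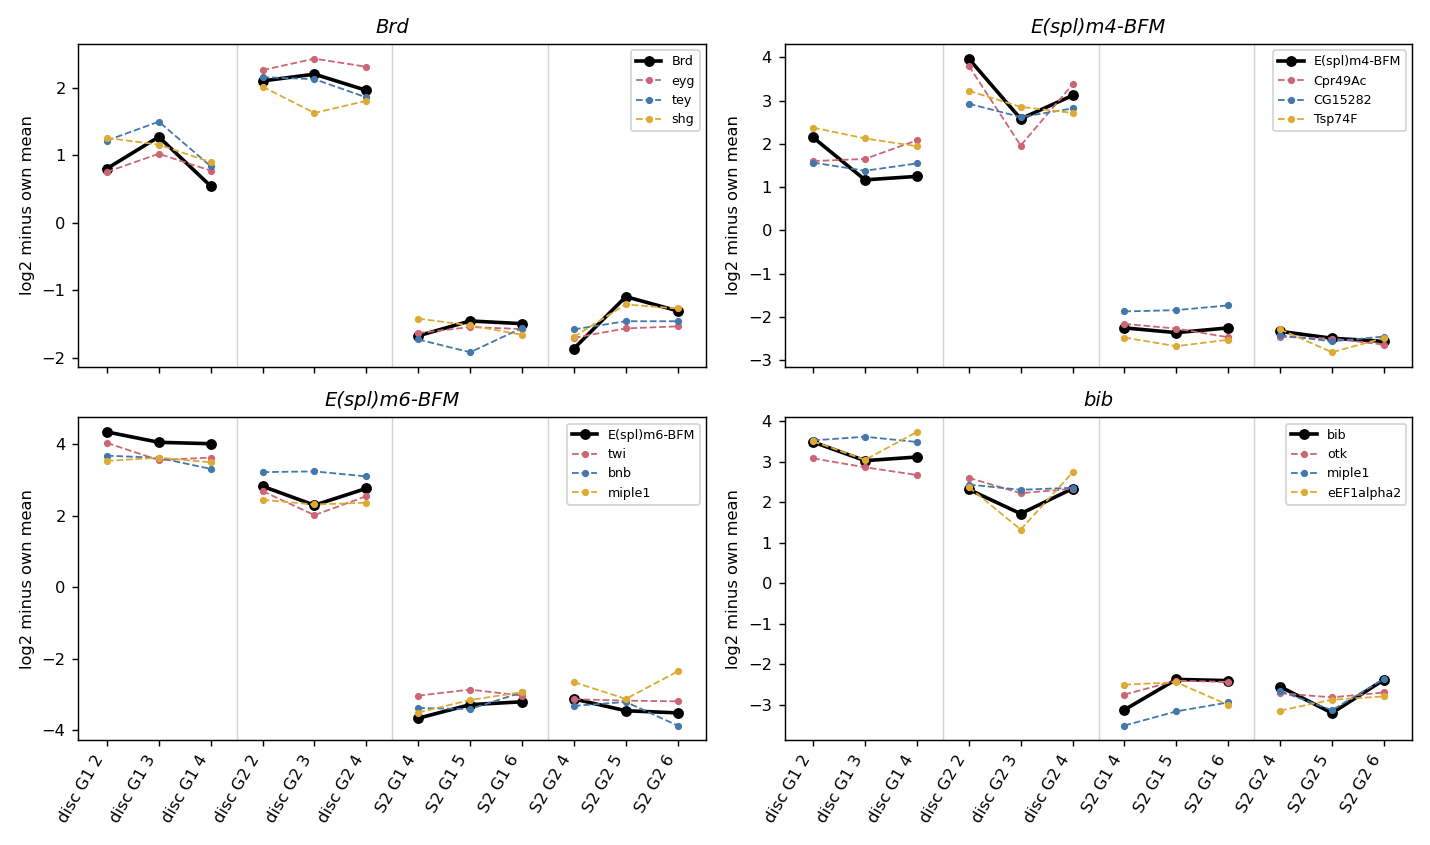
Log2 intensity minus the gene's own mean over 12 arrays (vertical axis) on each array (horizontal axis, group and replicate number) for each member (black) and the 3 genes most like it (dashed); lines join the arrays of a group only. Brd and eyg, and E(spl)m6-BFM and twi, lie close together within the disc gates as well as between disc and S2.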

How the data were processed

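RNA was measured on 12 arrays, 3 for each of 4 groups given by the sample titles. The deposited probe set values are a linear intensity, and the submitters' processing notes name RMA and R 2.15.2; how the authors corrected background and normalized arrays is not given beyond that. log2 was taken first. Of 18952 probe sets, 183 controls were left out. Of the other 18769, 13646 had 1 gene in the platform annotation of 2016, 402 several and 4721 none listed; 13543 identifiers matched the RefSeq gene table (GCF_000001215.4), which was used for names and gene order only. Members and lists were chosen with earlier results of these data known, and the comparisons of ratios with Tom, Ocho, E(spl)malpha-BFM and E(spl)m2-BFM after their values were seen.

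limma 3.58.1 in R 4.3.3 (lmFit, eBayes; 8 residual and 3.52 prior degrees of freedom) was fitted to the 8580 probe sets with log2 of at least 5 on at least 3 arrays, with 1 coefficient per group. Tests were two-sided with Benjamini-Hochberg adjustment. The fit was tested on simulated data. Named genes were the members, list genes that passed (up to 6 per list), all genes of the Bearded and E(spl) lists and the 3 genes most like each member; genes that did not pass are named as examples chosen after their values were seen. A gene was followed through its brightest probe set. Deviations from group means correlated at 0.31 to 0.52 in the 6 same-numbered pairs and at -0.50 to 0.01 in the 12 others, so the numbers pair the arrays; replicate number as a block was an alternative. Further alternatives were other filters, scalings, weights, priors and pseudocounts, and leaving out each array. Python 3.11.15, pandas 2.3.3, numpy 2.4.6, scipy 1.17.1 and matplotlib 3.10.9 were used for tables and plots. The number of arrays limits the precision.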

Additional observations from a re-analysis of the deposited data

Results flagged for a closer look

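The interaction term of the limma fit, the disc change from G1 to G2 minus the S2 change, passed the threshold for 2 of the 4 genes. For E(spl)m4-BFM it was 1.87 (adjusted p = 0.033), with a disc rise of 1.70 and an S2 value of -0.17. For E(spl)m6-BFM it was -1.53 (adjusted p = 0.0040), with a disc fall of 1.51 and an S2 value of 0.02. All S2 arrays were under 5 for both genes, near background, so that the term restates the disc change and does not show a difference in response between the cell types.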

How the results depend on the processing

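All 4 disc calls between the gates kept their direction under all 22 alternatives, and those of Brd, E(spl)m4-BFM and E(spl)m6-BFM also kept their side of the threshold. The disc change of bib ran from -1.19 to -0.88 when 1 array was left out, which gave 3 to 4 called members. With replicate number as a block the 4 disc calls stood, and the block changed 1 member call, that of the difference of Brd between disc and S2. That difference (adjusted p = 0.051) passed at 1.09 with the block, with the stricter filter (log2 of at least 6) and with a trended, robust prior, at 0.96 with array weights and at 1.01 on log2(value + 16); it ran from 0.87 to 1.29 with 1 array left out. bib passed on log2(value + 16) only (-1.01), which gave 4 called members in place of 2. The difference of E(spl)m4-BFM ran from 1.5 to 2.19 with 1 array left out, with 1 to 2 members called; fewer arrays are the difference by construction. S2 changes turned sign near 0, with no call: -0.05 for E(spl)m6-BFM after cyclic loess, 0.03 for bib with array weights, and with 1 array left out -0.04 to 0.34 for Brd, -0.12 to 0.11 for E(spl)m6-BFM and -0.33 to 0.16 for bib. So did uncalled disc changes: E(spl)m2-BFM (-0.03 with array weights; -0.33 to 0.39 with 1 array left out), E(spl)mdelta-HLH (0.02 after subtraction of array medians; -0.30 to 0.30), E(spl)malpha-BFM (-0.44 to 0.33), E(spl)mbeta-HLH (-0.10 to 0.20) and E(spl)m7-HLH (-0.49 to 0.15). The cause was not tested.

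Over all probe sets the disc comparison called 902, against 1626 with the block, 2043 with array weights and 601 without wing disc G1 replicate 4. The S2 comparison called 828, against 1577 with the block, 1645 with array weights, 413 in a separate fit and 493 without S2 G1 replicate 4; 63.5% of its calls were higher, against 48.0% after cyclic loess. The difference of changes called 438, against 949 with the block, 1151 with array weights and 281 without wing disc G2 replicate 4. Subtracting array medians moved the median disc minus S2 difference from -0.01 to -0.12. The mean over several probe sets was not run, since each member has 1. The block lies within cell type and was not run for disc against S2.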
